A study of Mus musculus with 16 samples.

Results

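In mouse mammary organoids, 8 genes of prolactin signalling were compared by mRNA level. They are the receptor Prlr, the transducers Stat5a and Stat5b, the transcription factor Elf5, and the feedback inhibitors Cish, Socs1, Socs2 and Socs3. They were chosen by name, as the core of the pathway, from 55487 gene identifiers in the deposited count table. The series holds RNA-seq of 16 organoid samples in 4 genotypes. Wild-type (WT) organoids came from normal breast (n = 3). The mutant organoids came from breast tumours and carried PIK3CA H1047R (n = 4), HER2 V777L (n = 4) or both alleles (double mutant, n = 5). PIK3CA encodes the catalytic subunit of a phosphoinositide 3-kinase and HER2, the product of Erbb2, is a receptor tyrosine kinase. Because every mutant sample is of tumour origin and every WT sample of normal origin, genotype and tissue source cannot be told apart in any comparison with WT. The 3 comparisons among the mutant genotypes do not carry that difference. The labels give no age, no promoter or Cre line, no way in which the alleles were introduced, and no statement that the replicates came from separate animals, so p-values measure the spread between these samples, which may be technical. All organoids grew in advanced DMEM/F12 with EGF, B27, N-acetyl-cysteine and Rspo1-Noggin conditioned medium, and prolactin is not among the components listed.

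Prolactin binds a dimer of its receptor, the receptor-bound kinase JAK2 phosphorylates STAT5, and STAT5 dimers enter the nucleus and bind DNA. In the mammary gland STAT5A together with ELF5, an Ets factor of luminal progenitors, drives the formation of milk-secreting alveoli and the transcription of casein genes. Cish and Socs2 are classical STAT5 target genes whose products damp cytokine receptor signalling, Socs1 encodes an inhibitor of JAK kinases that is strongly induced by interferon, and Socs3 is a target of STAT3 that damps receptors using the gp130 subunit.

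STAT dimers recognise the palindrome TTCNNNGAA, which reads the same on both strands. RefSeq promoter windows of 300 bases, from 250 before to 50 after a gene's start (GRCm38.p6), were found for 7 of the 8 genes, not for Socs2, and gave 12 windows. The motif occurred in 3 of these 12, and in 2726 of all 32851 windows (8.3%). Cish alone among the genes held it at 2 places in 1 window, as did 150 windows of all (0.457%). The stretches of the 3 windows with the motif are shown, and that of the casein gene Csn2 was added. Cish and Csn2 rose in HER2 mutant organoids, and Prlr and Socs3 did not pass the test there. Whether the motif has a part in these levels was not tested. Each stretch is 30 bases, 5′ to 3′ on the gene's strand, with the motif in capitals.
Cish: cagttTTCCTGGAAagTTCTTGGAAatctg
Prlr: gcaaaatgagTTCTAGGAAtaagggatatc
Socs3: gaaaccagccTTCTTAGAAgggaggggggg
Csn2: tcacgtagacTTCTTGGAAttgaagggact
The Cish stretch lies at chr9:107296654-107296683 (+), where its motifs start at positions 1 and 12, counting the RefSeq start base as 1. The Prlr stretch lies at chr15:10223786-10223815 (+), in the window of the 2nd of 3 annotated starts, with the motif 110 bases before that start. The Socs3 stretch lies at chr11:117969501-117969530 (-), 154 bases before the start, and the Csn2 stretch at chr5:87699499-87699528 (-), 93 bases before the start. A match describes the letters only; binding was not measured.

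Total counts ran from 45545182 to 64168308 per sample. Erbb2 checked the HER2 labels: it stood at 156 ± 13.1 CPM (counts scaled to library size; SD, n = 3) in WT, 168 ± 16.1 (n = 4) in PIK3CA mutants, 3600 ± 803 (n = 4) in HER2 mutants and 2031 ± 639 (n = 5) in double mutants. Pik3ca stood at 81.3 ± 5.0, 101 ± 8.67, 67.0 ± 5.37 and 115 ± 4.88 CPM in the same order, and the base changes themselves cannot be read from counts per gene. Luminal epithelial markers (Krt8, Krt18, Krt19 and Epcam) summed to 1442 to 1694 CPM in WT and 1324 to 3894 CPM in the mutants, so every sample carried RNA of these markers. Immune markers summed to 495 to 3006 CPM in WT, against 14.0 to 37.0 in PIK3CA mutants, 9.33 to 183 in HER2 mutants and 13.2 to 68.2 in double mutants. Fibroblast markers summed to 325 to 1899 CPM in WT, 65.1 to 471 in PIK3CA mutants, 34.0 to 624 in HER2 mutants and 26.2 to 58.0 in double mutants. All 7 immune and all 6 fibroblast markers were above 0 in at least 1 sample of each group. The part of these other cells in any difference from WT was not tested.

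HER2 mutant organoids carried several times more Cish and Socs2 mRNA than WT, PIK3CA mutant or double mutant organoids, while the receptor, both Stat5 genes and Elf5 did not pass the test between HER2 mutants and any of these groups. Socs1 was about 2-fold lower in PIK3CA and HER2 mutants than in WT, and Stat5a was 1.5-fold lower in double mutants than in WT. All 8 genes passed the filter on low counts, and calls rest on an adjusted p under 0.05 in edgeR's quasi-likelihood test over 24252 genes. Between PIK3CA mutants and WT, 1 of the 8 genes was called, lower, where 4.52% of all genes were called (1.49% higher and 3.03% lower). Between HER2 mutants and WT, 3 were called, 2 higher and 1 lower, where 10.4% of all genes were called (4.75% higher and 5.63% lower). Between double mutants and WT, 1 was called, lower, where 11.8% were called (5.03% higher and 6.72% lower). Double mutants against HER2 mutants gave 2 calls, both lower, beside 2.5% of all genes (1.03% higher and 1.47% lower). There 6 of the 8 genes had an unadjusted edgeR p under 0.05. Beside Cish and Socs2 these were Prlr (0.0398), Stat5a (0.0153), Stat5b (0.048) and Socs1 (0.0202). In HER2 mutants against WT and against PIK3CA mutants only the 3 and 2 called genes had one. HER2 against PIK3CA mutants gave 2 calls, both higher, beside 4.41% of all genes (2.21% higher and 2.2% lower). Double mutants against PIK3CA mutants gave 0 calls by edgeR and 0 by DESeq2, with 1 gene (Socs1) at an unadjusted p under 0.05, beside 0.672% of all genes (0.309% higher and 0.363% lower). The median log2 fold change of the 8 genes was -0.06 in HER2 mutants against WT, beside 0.03 over all genes tested. The comparisons with WT share the same 3 WT samples, and each genotype enters 3 comparisons.

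**Figure D1:**
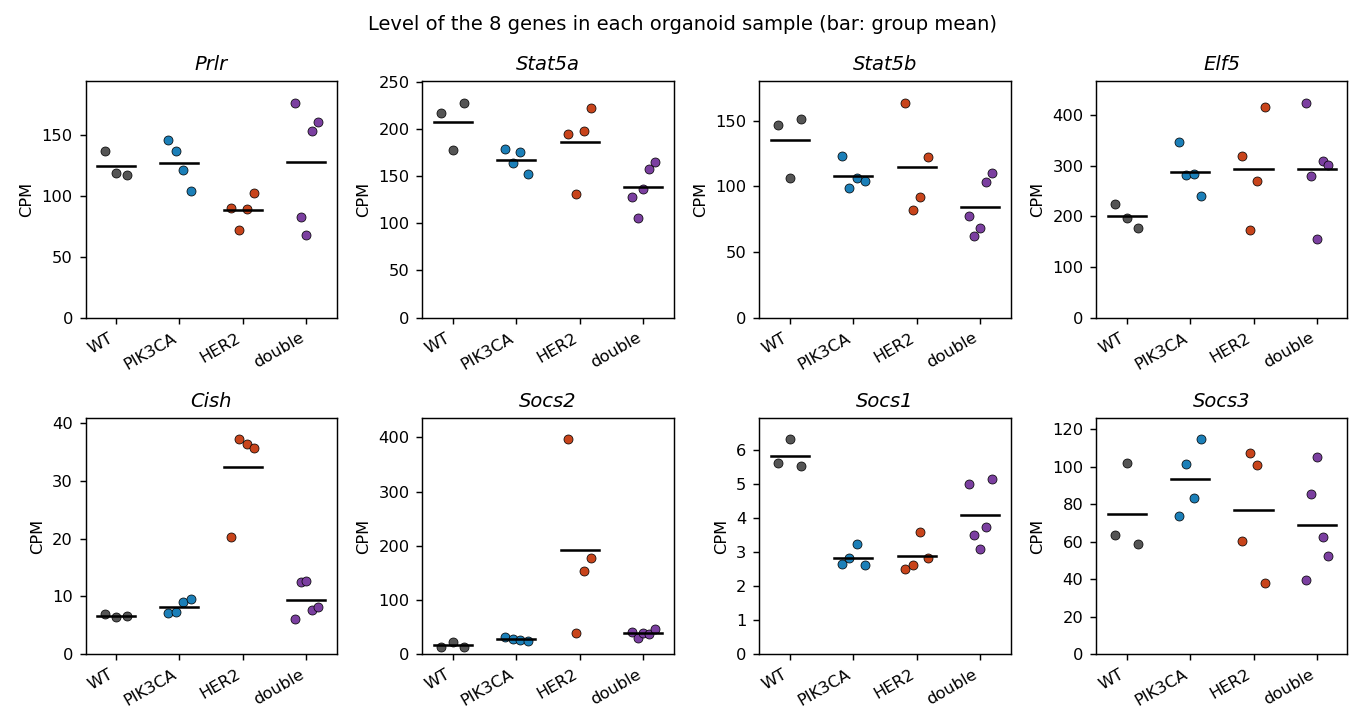
Normalised level (CPM, linear axis from 0) of each gene in each of the 16 organoid samples by genotype, with the bar at the group mean; "double" is the HER2 and PIK3CA double mutant. Cish is at 20.3 CPM or more in the 4 HER2 mutants and at 12.7 CPM or less elsewhere, and Prlr splits the double mutants into 3 samples above 150 CPM and 2 below 100 CPM.

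Prolactin itself was almost absent as RNA. Prl had 0 counts in 15 of 16 samples and 1 count in a PIK3CA mutant sample, and 3 counts, the limit that a count of 0 allows, correspond to 0.0468 to 0.0659 CPM per library. This limit covers counting error only.

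Prlr lies on chromosome 15 at 10177238 to 10349180, plus strand (GRCm38, GENCODE M21), and encodes the long and short forms of the receptor, which counts per gene do not separate. It stood at 137, 119 and 118 CPM in WT and at 146, 138, 121 and 104 CPM in PIK3CA mutants. HER2 mutants gave 90.3, 72.2, 89.2 and 103 CPM, all below every WT and every PIK3CA mutant sample. The double mutants gave 177, 82.8, 67.7, 154 and 161 CPM, so that 3 samples lay above all others in the series and the other 2 among or below the HER2 mutants. The log2 fold change of HER2 mutants against WT was -0.49 (SE 0.268, edgeR adjusted p = 0.263), and against PIK3CA mutants -0.52 (SE 0.250, edgeR adjusted p = 0.267). Neither passed the test, although the samples did not overlap. Double against HER2 mutants gave 0.53 (SE 0.239, edgeR adjusted p = 0.253), and double mutants against WT 0.04 (SE 0.257).

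Stat5a and Stat5b are neighbouring genes on chromosome 11 with near-identical coding sequences, Stat5a at 100859351 to 100885169 on the plus strand and Stat5b at 100780731 to 100850724 on the minus strand. Reads that fit both could not be assigned with certainty by counting, and 72 exonic bases of Stat5a overlap Stat3 on the other strand, so the level of each is uncertain to that extent. Stat5a stood at 216, 178 and 228 CPM in WT, and at 178, 164, 175 and 152 CPM in PIK3CA mutants. It stood at 194, 130, 198 and 222 CPM in HER2 mutants. In double mutants it stood at 128, 106, 136, 158 and 165 CPM, all below the lowest WT sample. Stat5a was 1.5-fold lower in double mutants than in WT (log2 -0.58, SE 0.169, edgeR adjusted p = 0.0351). The call ended in 5 of 8 fits that each left out 1 sample (WT 1, WT 3 and double mutants 1, 2 and 3, with adjusted p from 0.0579 to 0.172), and without double mutants 2 and 3 together the value was -0.47 (edgeR adjusted p = 0.126). Against HER2 mutants the difference was -0.43 (SE 0.157, edgeR adjusted p = 0.159). Without HER2 mutant 2 it passed, at -0.56 (edgeR adjusted p = 0.0481).

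Stat5b followed the same order of group means. It stood at 147, 107 and 152 CPM in WT, at 123, 99.1, 107 and 104 CPM in PIK3CA mutants and at 164, 81.7, 92.0 and 122 CPM in HER2 mutants. The double mutants gave 77.5, 62.1, 68.5, 104 and 110 CPM, which overlapped WT at its lowest sample. The log2 fold change of double mutants against WT was -0.68 (SE 0.225) and missed the threshold (edgeR adjusted p = 0.0621). With upper-quartile scaling it passed, at -0.69 (edgeR adjusted p = 0.0441). Per length of exon, Stat5a exceeded Stat5b 1.20 ± 0.081-fold in WT (SD, n = 3), 1.20 ± 0.085-fold in PIK3CA mutants (n = 4), 1.31 ± 0.315-fold in HER2 mutants (n = 4) and 1.30 ± 0.152-fold in double mutants (n = 5). HER2 mutants spread most in this ratio, from 0.921 to 1.67. Across the 16 samples Stat5a and Stat5b moved together, with r = 0.87 in log2 CPM and 0.77 after each genotype's mean was removed. Shared libraries enter these values, and reads that fit both genes may enter them, since their treatment in counting is not given.

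Elf5 lies on chromosome 2 at 103411688 to 103450989, plus strand. Its level was 224, 197 and 178 CPM in WT and 346, 282, 284 and 241 CPM in PIK3CA mutants, where every sample lay above every WT sample. HER2 mutants ranged over 2.40-fold, at 319, 173, 269 and 415 CPM. Double mutants ranged over 2.75-fold, at 424, 280, 155, 310 and 300 CPM. The group means were alike in the 3 mutant genotypes, with log2 fold changes against WT of 0.53 (SE 0.291), 0.56 (SE 0.292) and 0.56 (SE 0.281) for PIK3CA, HER2 and double mutants, and none passed the test (edgeR adjusted p = 0.389, 0.244 and 0.218). With only PIK3CA mutants and WT in the fit, the first passed (edgeR adjusted p = 0.0283). Prlr and Elf5 moved together within genotypes (r = 0.81 over the 16 samples after removal of genotype means). Shared libraries and scaling enter this value, as do the double mutants, which split into high and low samples in Prlr. HER2 mutants 2 and 3, which lay below HER2 mutants 1 and 4 in both genes, also enter it.

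Cish encodes an SH2-domain inhibitor that binds activated cytokine receptors, and lies on chromosome 9 at 107296026 to 107302784, plus strand. The antisense genes Gm17040 and Gm17041 overlap 261 and 479 of its exonic bases and reached at most 0.126 and 0 CPM. Cish stood at 7.01, 6.42 and 6.59 CPM in WT, at 7.12, 7.27, 9.01 and 9.52 CPM in PIK3CA mutants and at 20.3, 37.2, 36.5 and 35.7 CPM in HER2 mutants. In double mutants it stood at 6.08, 12.6, 12.7, 7.63 and 8.17 CPM. All 4 HER2 mutants lay above every other sample of the series, and WT varied by no more than 1.09-fold. Cish rose 4.85-fold in HER2 mutants against WT (log2 2.28, SE 0.281, edgeR adjusted p = 0.00038) and 3.94-fold against PIK3CA mutants (log2 1.98, SE 0.250, edgeR adjusted p = 0.000848). It was 3.43-fold lower in double than in HER2 mutants (log2 -1.78, SE 0.230, edgeR adjusted p = 0.0014). These 3 calls held in every fit that left out 1 sample (7, 8 and 9 fits). Double mutants differed from WT by 0.50 (SE 0.254, edgeR adjusted p = 0.222) and PIK3CA mutants from WT by 0.30 (SE 0.263, edgeR adjusted p = 0.628), neither past the test.

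Socs2, whose product limits growth hormone receptor signalling, lies on chromosome 10 at 95385362 to 95417180, minus strand. It stood at 13.0, 23.1 and 13.7 CPM in WT, at 31.3, 27.7, 26.2 and 24.9 CPM in PIK3CA mutants, and at 41.6, 30.3, 39.2, 38.1 and 47.1 CPM in double mutants. HER2 mutants gave 396, 40, 154 and 178 CPM, a 9.91-fold range inside 1 genotype. Every sample of each mutant genotype lay above every WT sample, but HER2 mutant 2 lay within the double mutants. Socs2 rose 11.6-fold in HER2 mutants against WT (log2 3.53, SE 0.529, edgeR adjusted p = 0.00128) and 6.97-fold against PIK3CA mutants (log2 2.80, SE 0.454, edgeR adjusted p = 0.00379). It was 4.89-fold lower in double than in HER2 mutants (log2 -2.29, SE 0.411, edgeR adjusted p = 0.00979). Without HER2 mutant 1, the highest, the 3 differences were 2.90, 2.17 and -1.66 on the log2 scale (edgeR adjusted p = 0.00107, 0.0042 and 0.0182). The calls held in each fit that left out 1 sample, but with only the 2 genotypes in the fit the first and the last did not pass (edgeR adjusted p = 0.052 and 0.0873). Double mutants against WT gave 1.24 (SE 0.461, edgeR adjusted p = 0.0936), which passed with DESeq2 (adjusted p = 0.0422), and PIK3CA mutants against WT gave 0.73 (SE 0.468, edgeR adjusted p = 0.478).

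**Figure D2:**
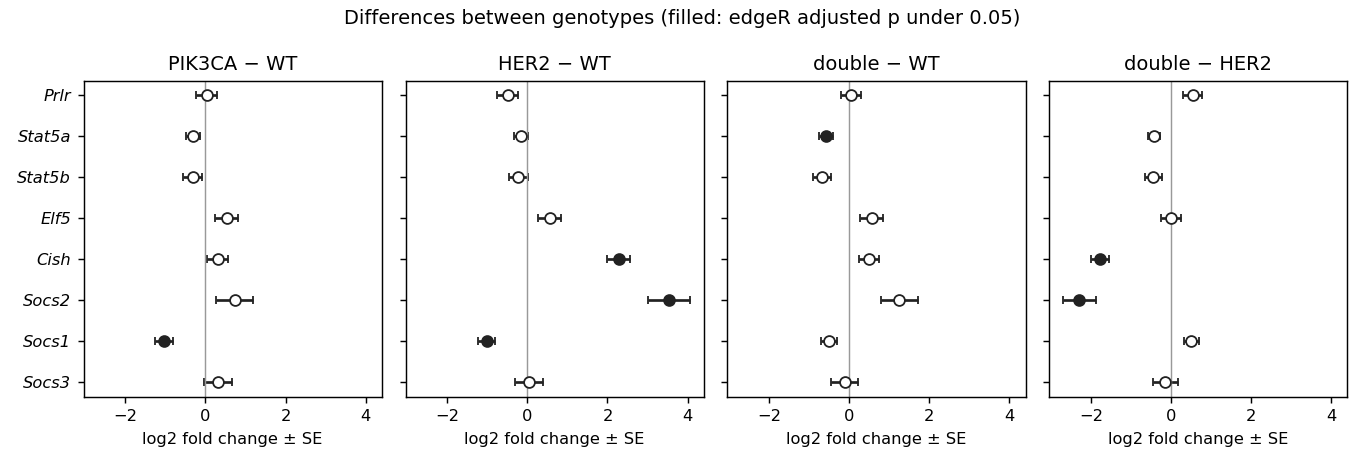
Log2 fold change with its standard error for each gene in 4 comparisons, named above the panels as first genotype minus second; filled points have an edgeR adjusted p under 0.05. Cish and Socs2 are filled in HER2 against WT (2.28 and 3.53) and, with the opposite sign, in double against HER2 (-1.78 and -2.29), while Prlr, Elf5 and Socs3 are open in all 4.

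Cish and Socs2 were both high in HER2 mutants but did not rank these samples alike. HER2 mutant 1 had the highest Socs2 (396 CPM) and the lowest Cish (20.3 CPM) of the group, and HER2 mutant 2 the highest Cish (37.2 CPM) and the lowest Socs2 (40 CPM). Per length of exon, Socs2 exceeded Cish 13.2-fold in HER2 mutant 1 and was at 0.724 of it in HER2 mutant 2, with 2.85 and 3.36 in the other 2. The same ratio ran from 1.25 to 2.43 in WT, 1.76 to 2.96 in PIK3CA mutants and 1.62 to 4.61 in double mutants. Over all 16 samples r between the 2 genes was 0.71 in log2 CPM, and after removal of genotype means it was -0.53. Csn2, the beta-casein gene, ranked the HER2 mutants in a further order, at 3092, 1304, 22709 and 8745 CPM in HER2 mutants 1 to 4. HER2 mutant 2 was lowest in both Socs2 and Csn2. Several of 7 markers of basal and myoepithelial cells were lower in HER2 mutants, the group with high Cish and Socs2. Against PIK3CA mutants 4 of 7 were lower (median log2 fold change -1.55) and against WT 3 of 7 (-1.01), with 0 higher in both. Their sum was 241 to 867 CPM in HER2 mutants, 468 to 999 in WT, 482 to 1303 in PIK3CA mutants and 482 to 963 in double mutants. Of 7 immune markers, 4 were lower in HER2 mutants than in WT and 3 lower in double than in HER2 mutants. The part of these cell types in the Cish, Socs2 and milk gene values was not tested.

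**Figure D3:**
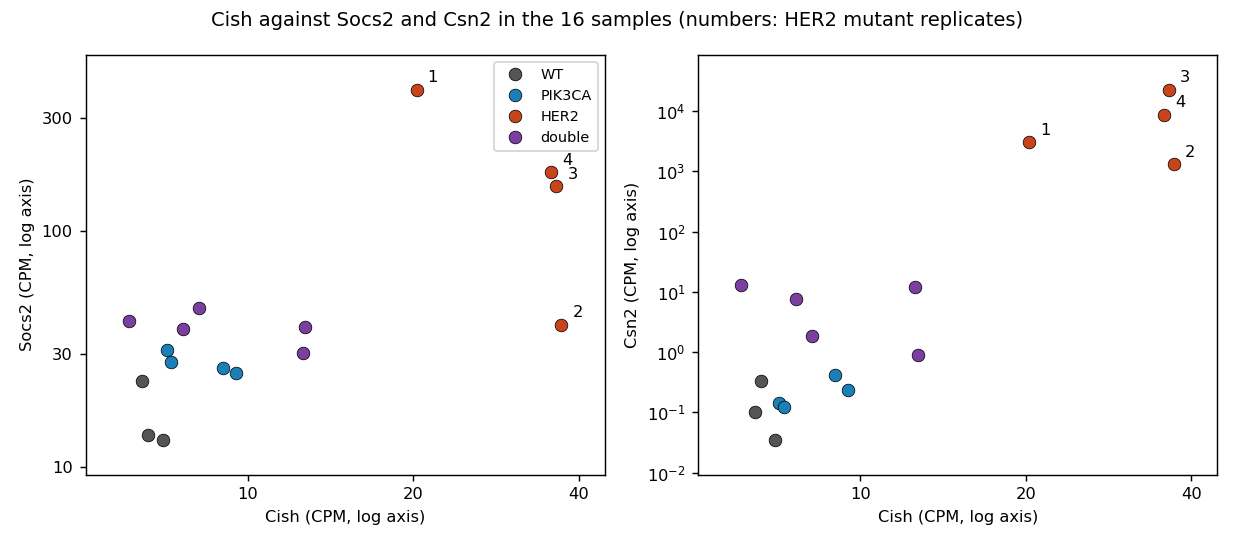
Cish level (CPM, log axis) against Socs2 (left) and Csn2 (right; CPM, log axes) in the 16 samples, coloured by genotype, with the HER2 mutants numbered by replicate. HER2 mutant 1 combines 396 CPM of Socs2 with 20.3 CPM of Cish and HER2 mutant 2 40 with 37.2, and Csn2 is at 1304 CPM or more in the 4 HER2 mutants and at 12.8 CPM or less elsewhere.

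Socs1 was the least abundant of the 8 genes in CPM, with 133 to 332 counts per sample. It lies on chromosome 16 at 10782240 to 10785536, minus strand. Its level was 5.63, 6.32 and 5.54 CPM in WT, 2.66, 2.83, 3.23 and 2.63 CPM in PIK3CA mutants and 2.51, 2.62, 3.58 and 2.85 CPM in HER2 mutants. In double mutants it was 5.0, 3.50, 3.08, 3.75 and 5.15 CPM, below every WT sample and, in 3 of the 5 samples, above every single mutant. Socs1 fell 2.06-fold in PIK3CA mutants (log2 -1.04, SE 0.218, edgeR adjusted p = 0.0112) and 2.02-fold in HER2 mutants against WT (log2 -1.01, SE 0.218, edgeR adjusted p = 0.00971). Both calls held in each of 7 fits that left out 1 sample. With only HER2 mutants and WT in the fit the second did not pass (edgeR adjusted p = 0.0624). Double mutants against WT gave -0.51 (SE 0.207, edgeR adjusted p = 0.125), against HER2 mutants 0.50 (SE 0.195, edgeR adjusted p = 0.181) and against PIK3CA mutants 0.53 (SE 0.195, edgeR adjusted p = 0.265). Immune markers summed to at least 495 CPM in WT and at most 183 CPM in the mutants, and moved with Socs1 in the comparisons with WT. Inside WT they ran from 495 to 3006 CPM, while Socs1 ran from 5.54 to 6.32 CPM. Immune markers summed to 13.2 to 68.2 CPM in double, 14.0 to 37.0 in PIK3CA and 9.33 to 183 in HER2 mutants. Mean Socs1 was 4.10, 2.84 and 2.89 CPM in the same order. The part of immune cells in the Socs1 values was not tested. In bulk RNA, fewer cells of a type and less RNA per cell cannot be told apart.

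Socs3 lies on chromosome 11 at 117966079 to 117970047, minus strand. It stood at 63.9, 102 and 59.0 CPM in WT, 73.6, 101, 83.5 and 115 CPM in PIK3CA mutants, 60.7, 108, 101 and 38.2 CPM in HER2 mutants and 39.7, 85.7, 105, 62.6 and 52.4 CPM in double mutants. Every group overlapped every other, and the spread inside HER2 mutants (2.82-fold) and double mutants (2.65-fold) exceeded all differences between group means. The log2 fold changes against WT were 0.32 (SE 0.357), 0.04 (SE 0.355) and -0.12 (SE 0.338) for PIK3CA, HER2 and double mutants, none past the test (edgeR adjusted p = 0.727, 0.963 and 0.863). Within genotypes Socs3 ran against Elf5 (r = -0.83) and Prlr (r = -0.75) over the 16 samples. Shared libraries and scaling enter these values, as do the double mutants, which split into high and low samples in Prlr. HER2 mutants 2 and 3, above HER2 mutants 1 and 4 in Socs3 and below them in Elf5 and Prlr, also enter them.

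Compared per length of exon, as reads per kilobase of exon scaled to library size (RPKM), the levels of the genes in WT fell into 3 tiers. Elf5 (34.0 ± 3.99, SD, n = 3), Stat5a (29.1 ± 3.68), Socs3 (25.9 ± 8.16) and Stat5b (24.4 ± 4.46) overlapped or lay next to each other. Prlr followed at 8.13 ± 0.711. Socs1 (2.0 ± 0.148), Socs2 (1.74 ± 0.595) and Cish (1.04 ± 0.047) were lowest, and Socs1 and Socs2 did not differ beyond their spread. In HER2 mutants Socs2 reached 20.2 ± 15.6 RPKM (n = 4), beside Stat5b at 20.8 ± 6.65, and Cish reached 5.05 ± 1.26, beside Prlr at 5.78 ± 0.817. With the length of the longest transcript in place of all exons, Elf5 in WT came to 61.2, Stat5a to 52.4, Prlr to 12.6 and Socs2 to 3.91 RPKM. Socs2 in WT then ran from 3.06 to 5.45 RPKM, above Socs1 at 1.905 to 2.175. In HER2 mutants Socs2 came to 45.3 and Stat5b to 22.05 RPKM. The nearness of Socs2 to Socs1 and to Stat5b thus held only with all exons, and levels between genes depend on which transcripts are made.

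The design allows a test of whether the difference between double and HER2 mutants departs from that between PIK3CA mutants and WT. Cish differed by -2.08 on the log2 scale (SE 0.353, edgeR adjusted p = 0.012), Socs2 by -3.02 (SE 0.632, edgeR adjusted p = 0.0331) and Socs1 by 1.54 (SE 0.293, edgeR adjusted p = 0.0207), 3 of 8 genes where 1.06% of all genes were called (0.515% higher and 0.544% lower). PIK3CA mutants against WT gave 0.30 for Cish and 0.73 for Socs2, neither past the test, and double against HER2 mutants gave -1.78 and -2.29. Socs1 had the reverse signs, -1.04 and 0.50, of which only the first passed. Without HER2 mutant 1 the Socs2 value was -2.39 (edgeR adjusted p = 0.0305). Without WT 3 the Cish value was -2.07 (edgeR adjusted p = 0.0531). The Socs2 call ended in 9 of 16 fits that left out 1 sample (WT 1 and 3, PIK3CA mutants 1 to 4, double mutants 1, 4 and 5, with adjusted p up to 0.132) and the Socs1 call in 5 of 16 (WT 1 and 3, PIK3CA mutants 1, 2 and 4, up to 0.0652). The tissue source differs inside this test too, since only WT is of normal origin.

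Double mutants 2 and 3 stood apart from the other 3 in the whole transcriptome and in several of the genes. On the second principal component of log2 CPM (14.7% of the variance), they lay at -35.6 and -10.9, against 33.6 to 47.8 for double mutants 1, 4 and 5 and -79.9 to -27.2 for the HER2 mutants. Their Erbb2 level was 2751 and 2706 CPM, against 1499 to 1649 CPM in the other 3 and 2696 to 4632 CPM in HER2 mutants. Prlr was at 82.8 and 67.7 CPM in them and at 154 to 177 CPM in the others. Cish was at 12.6 and 12.7 CPM in them and at 6.08 to 8.17 CPM in the others, still below every HER2 mutant. Socs3 was at 85.7 and 105 CPM against 39.7 to 62.6 CPM, Stat5b at 62.1 and 68.5 CPM against 77.5 to 110 CPM, and Socs1 at 3.50 and 3.08 CPM against 3.75 to 5.15 CPM. Elf5 was at 280 and 155 CPM in them and at 300 to 424 CPM in the others. Socs2 and Stat5a did not separate the samples in this way. HER2 mutants 2 and 3 differed from HER2 mutants 1 and 4 in the same directions in some genes. Socs3 was at 108 and 101 CPM against 60.7 and 38.2 CPM, and Elf5 at 173 and 269 against 319 and 415. Stat5b was at 81.7 and 92.0 CPM against 164 and 122 CPM. The gap was narrow in Prlr (72.2 and 89.2 against 90.3 and 103) and Cish (37.2 and 36.5 against 20.3 and 35.7). Erbb2 and Socs1 did not split the HER2 mutants so. These values are a description, since double mutants 2 and 3 were picked after the data were seen. Without them, the Prlr difference of double from HER2 mutants was 0.89 (edgeR adjusted p = 0.00694), and Prlr entered the calls of the interaction (0.86, edgeR adjusted p = 0.0304), while Cish and Socs2 remained called in both.

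**Figure D4:**
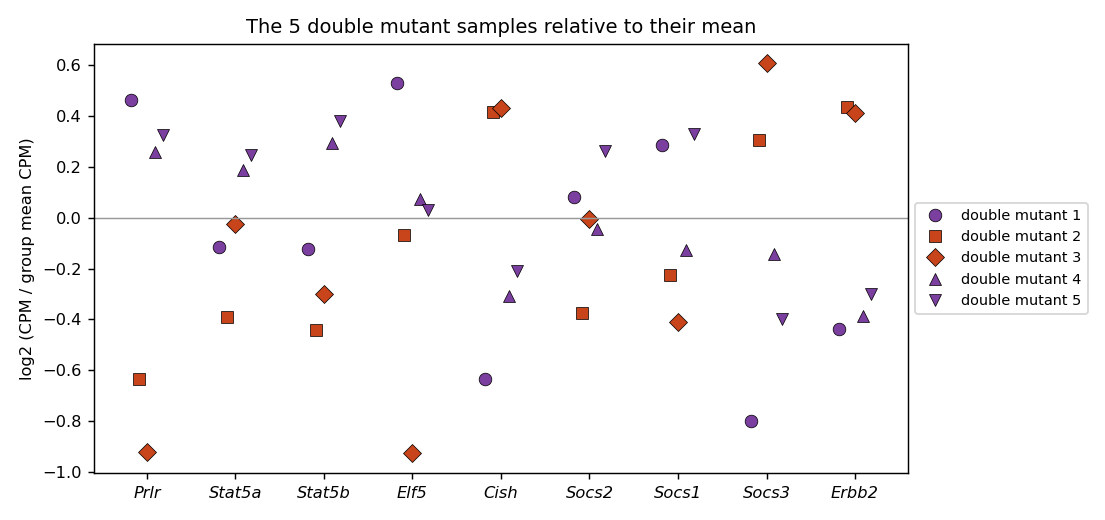
Level of the 8 genes and of Erbb2 in each of the 5 double mutant samples, as log2 of CPM over the group's mean CPM, with double mutants 2 and 3 in orange. These 2 lie together below the mean in Prlr (82.8 and 67.7 CPM) and above it in Cish (12.6 and 12.7 CPM) and Erbb2 (2751 and 2706 CPM).

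Of the other genes of the JAK-STAT machinery, at most 2 were called by edgeR in any comparison. Of 25 further genes (kinases, other STATs, other SOCS members, phosphatases, PIAS and SH2B proteins, growth hormone receptor and prolactin), 23 could be tested, not Prl and Stat4. The counts of genes called higher and lower were 1 and 0 in PIK3CA mutants against WT, where 4.52% of all genes were called. They were 2 and 0 in double mutants against WT (11.8% of all genes) and 2 and 0 in double against HER2 mutants (2.5%). HER2 against PIK3CA mutants gave 0 and 1 (4.41%). Between HER2 mutants and WT, 0 of 23 were called by edgeR, where 10.4% of all genes were called. The median log2 fold change there was -0.10 beside 0.03 over all genes. Jak2, the kinase bound to the prolactin receptor, gave 0.04 (SE 0.214), and Jak1 gave -0.67 (SE 0.225, edgeR adjusted p = 0.0714). DESeq2 also called 0 of the 23 there, and 3 (Stat6, Jak1 and Socs4) had an unadjusted p under 0.05. Socs5, an inhibitor with less known receptors, rose in PIK3CA mutants from 124 ± 15.9 (SD, n = 3) to 215 ± 15.7 CPM (n = 4), a log2 fold change of 0.80 (edgeR adjusted p = 0.00311), and in double mutants against WT by 0.48 (edgeR adjusted p = 0.0276). It was lower in HER2 than in PIK3CA mutants (-0.66, edgeR adjusted p = 0.0097). Ptpn2, a phosphatase of JAK and STAT proteins, was higher in double mutants at 62.5 ± 6.34 CPM (n = 5) than in WT at 39.8 ± 9.46 (0.65, edgeR adjusted p = 0.00832) and HER2 mutants at 41.9 ± 4.19 (0.58, edgeR adjusted p = 0.0328). Socs4 gained 0.38 in double over HER2 mutants (edgeR adjusted p = 0.0483). Of these calls, the 2 of Socs5 that involve PIK3CA mutants held in every fit that left out 1 sample, and the other 4 ended in 1 or more, the Socs5 difference of double mutants from WT also without double mutants 2 and 3 (0.38, edgeR adjusted p = 0.105). Double against PIK3CA mutants gave 0 calls by edgeR and 0 by DESeq2, with 3 genes at an unadjusted p under 0.05, and the interaction gave 0 by edgeR and 1 by DESeq2, also with 3.

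Among other cytokines and receptors that signal through JAK and STAT proteins, Lif was higher and several receptor subunits were lower in the mutants. Of 20 tested, 1 was higher and 4 lower in PIK3CA mutants against WT, where 4.52% of all genes were called. HER2 mutants against WT had 1 higher and 3 lower (10.4% of all genes), and double mutants against WT 2 higher and 7 lower (11.8%). Double against HER2 mutants gave 1 higher and 2 lower (2.5% of all genes), and HER2 against PIK3CA mutants 0 higher and 2 lower (4.41%). Lif, a gp130 cytokine that activates STAT3, was higher in all 3: 32.1 ± 7.29 CPM in WT, 87.3 ± 3.97 in PIK3CA mutants (log2 1.44, edgeR adjusted p = 0.0154), 67.2 ± 28.7 in HER2 mutants (1.07, edgeR adjusted p = 0.0424) and 81.5 ± 22.2 in double mutants (1.34, edgeR adjusted p = 0.0101). Receptor subunits of the same family fell in HER2 mutants: Il11ra1 by -1.30 (edgeR adjusted p = 0.000415), Osmr by -0.74 (edgeR adjusted p = 0.0272) and Il6st, which encodes gp130, by -0.57 (edgeR adjusted p = 0.034). These 3 were also lower in double mutants than in WT, Il11ra1 at -0.73 (edgeR adjusted p = 0.0057), Osmr at -0.72 (edgeR adjusted p = 0.0201) and Il6st at -0.69 (edgeR adjusted p = 0.00766). Il11ra1 was 41.4 ± 4.32 CPM in WT and 16.8 ± 1.21 CPM in HER2 mutants, was higher in double mutants at 25.0 ± 5.93 CPM (0.58 against HER2, edgeR adjusted p = 0.0489), and was called in the interaction (1.00, edgeR adjusted p = 0.0392). Il6ra was lower in double mutants than in WT (-2.58, edgeR adjusted p = 0.00041) and than in HER2 mutants (-1.92, edgeR adjusted p = 0.0094), and Ifngr2 lower in HER2 than in PIK3CA mutants (-0.80, edgeR adjusted p = 0.0458). Lepr was higher in double mutants at 2.53 ± 2.73 CPM than in WT at 0.256 ± 0.168 (3.29, edgeR adjusted p = 0.025). Csf2rb, Il2rg and Osm, which blood cells express, were lower in PIK3CA mutants and in double mutants than in WT. Csf2rb was 18.6 to 53.1 CPM in WT and at most 0.576 CPM in PIK3CA mutants and 0.148 CPM in double mutants, and the immune markers given above moved with it; their part was not tested. Of 19 calls named by rule in this list, 6 held in every fit that left out 1 sample: Il11ra1 in HER2 mutants against WT and against PIK3CA mutants, Il6ra in double against HER2 mutants, Csf2rb against WT in PIK3CA and in double mutants, and Il2rg in double mutants against WT. The calls of Il11ra1, Osmr, Il6st and Il6ra in double mutants against WT lie outside that rule, and their left-out fits are not given. The Lif call ended in 2 of 7 fits for PIK3CA mutants, 6 of 7 for HER2 mutants and 1 of 8 for double mutants. Double against PIK3CA mutants gave 0 calls in this list by edgeR and 0 by DESeq2, with 5 genes at an unadjusted p under 0.05.

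Milk genes, the textbook targets of this pathway, rose with Cish and Socs2 in HER2 mutants. Of 15 tested, 10 were higher and 2 lower than in WT, where 10.4% of all genes were called. Their median log2 fold change was 2.68 beside 0.03 over all genes. Csn2 went from 0.035 to 0.334 CPM in WT to 1304 to 22709 CPM in HER2 mutants (log2 15.8, SE 1.66, edgeR adjusted p = 0.000201), and Csn1s2a from 0.070 to 0.367 CPM to 107 to 3128 CPM (log2 12.6, edgeR adjusted p = 0.000494). Glycam1 also rose, from at most 0.035 CPM to 1.36 to 104 CPM (edgeR adjusted p = 0.002). Other milk genes had other values: Lalba, encoding alpha-lactalbumin, was 87.5 ± 31.8 CPM in WT and 72.3 ± 100 CPM in HER2 mutants (edgeR adjusted p = 0.912), and Plin2 of lipid droplets and Spp1 (osteopontin) fell by -1.42 and -1.86 (edgeR adjusted p = 0.00686 and 0.0154). In double mutants Csn2 was at 0.883 to 12.8 CPM, lower than in HER2 mutants (log2 -10.3, edgeR adjusted p = 0.000558) and higher than in WT (5.44, edgeR adjusted p = 0.00818). Against HER2 mutants, 5 of the 15 were lower, among them Csn2, Csn1s2a and Glycam1, and 1, Spp1, was higher. PIK3CA mutants had 2 higher (Wfdc18 and Xdh) and 1 lower (Plin2) than WT. Csn3, the kappa-casein gene, was already at 4184 ± 991 CPM in WT and 10976 ± 2649 CPM in PIK3CA mutants, where Csn2 was at most 0.421 CPM. HER2 against PIK3CA mutants, which share the tumour source, had 5 higher and 0 lower, and the interaction 1 higher (Plin2) and 3 lower (Csn2, Csn1s2a and Xdh). Double against PIK3CA mutants had 1 higher, Csn2 (4.95, edgeR adjusted p = 0.0431), and 0 lower, and that call was lost in 8 of 9 fits that left out 1 sample. Every other call of Csn2, Csn1s2a and Glycam1 given here held in each such fit, as did Plin2 in both single mutants and Xdh in the interaction. The sizes moved with HER2 mutant 3, the highest in Csn2, and with single WT samples: against WT the HER2 mutants gave 14.7 for Csn2, 11.4 for Csn1s2a and 8.60 for Glycam1 without HER2 mutant 3, and 17.0 for Csn2 without WT 3. Wfdc18 in PIK3CA mutants was lost in 7 of 7 such fits and Xdh there in 3 of 7, Spp1 in HER2 mutants without WT 1, Spp1 in double against HER2 mutants in 6 of 9, and Plin2 in the interaction without WT 3. Without double mutants 2 and 3, double against HER2 mutants gave 5 lower and 0 higher, and against WT 3 higher and 0 lower where all samples gave 4 and 1.

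**Figure D5:**
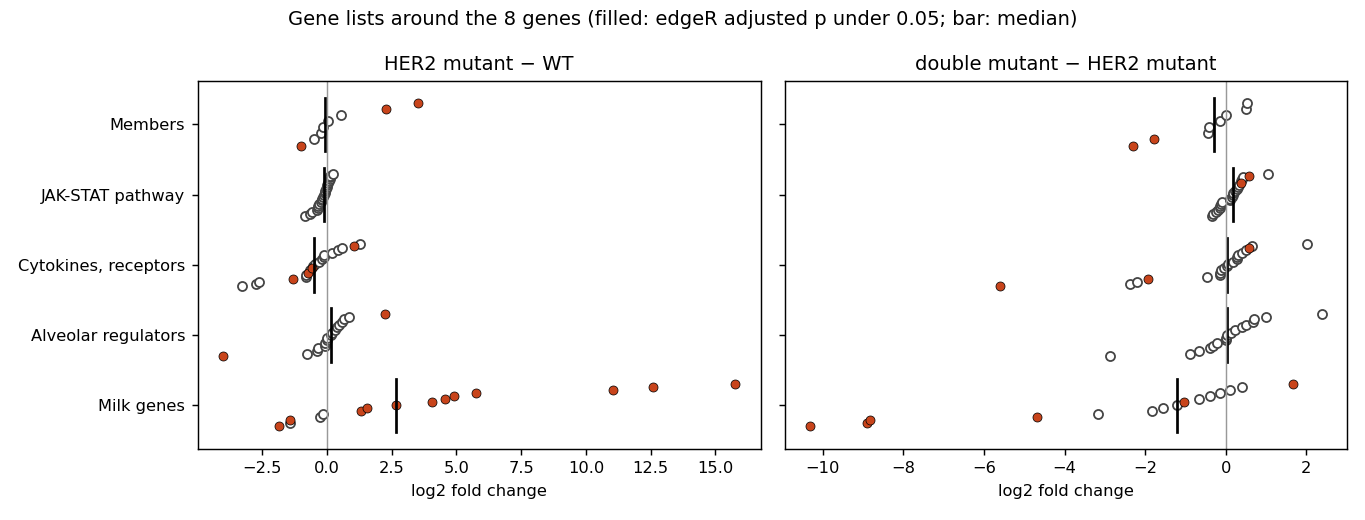
Log2 fold change of each tested gene in the 8 members and 4 gene lists, for HER2 mutants against WT (left) and double against HER2 mutants (right); filled points have an edgeR adjusted p under 0.05 and bars mark medians. The milk genes spread furthest, with a median of 2.68 on the left, and the JAK-STAT list stays near 0 with 0 filled points on the left.

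Of 17 tested regulators of alveolar differentiation other than Elf5 and Stat5, 1 was higher and 1 lower in HER2 mutants against WT. Of all genes, 10.4% were called in that comparison. Areg, an EGF receptor ligand, rose from 1.4 ± 0.201 to 6.66 ± 3.18 CPM (log2 2.24, edgeR adjusted p = 0.00613) and to 10.8 ± 3.57 CPM in double mutants (2.94, edgeR adjusted p = 0.000693). Erbb4, a receptor that can activate STAT5A, fell from 18.5 ± 11.8 CPM to 1.15 ± 1.26 CPM in HER2 mutants (-4.0, edgeR adjusted p = 0.0194) and 0.155 ± 0.127 CPM in double mutants (-6.87, edgeR adjusted p = 0.000667). PIK3CA mutants had 3 higher and 0 lower against WT, where 4.52% of all genes were called. The 3 were the Ets factor Ehf (0.94, edgeR adjusted p = 0.0185), Tfap2c (0.81, edgeR adjusted p = 0.0341) and Cav1 (1.76, edgeR adjusted p = 0.0271). Double mutants had 4 higher and 1 lower against WT, where 11.8% of all genes were called. Cav1 (1.84, edgeR adjusted p = 0.00943) and Cited1 (2.71, edgeR adjusted p = 0.0278) were among the higher. Id2 was lower in HER2 than in PIK3CA mutants (-0.70, edgeR adjusted p = 0.0407), where Areg was higher (1.69, edgeR adjusted p = 0.0244). Against PIK3CA mutants, double mutants had Areg higher (2.383, edgeR adjusted p = 0.0148) and Erbb4 lower (-4.375, edgeR adjusted p = 0.0499). That Erbb4 call ended in 9 of 9 fits that left out 1 sample. Of all genes, 0.672% were called there. In fits that left out 1 sample, the Areg calls against WT and the Erbb4 call of double mutants against WT held throughout, while Erbb4 in HER2 mutants ended without WT 1 or WT 3 and the other calls given here ended in 2 or more fits. Double against HER2 mutants gave 0 calls by edgeR in this list, with 7 genes at an unadjusted p under 0.05 and 3 calls by DESeq2, and the interaction gave 0 by edgeR, with 3 and 1.

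The genes whose level followed each member most closely were sought by Pearson r of log2 CPM over the 16 samples among 11744 other genes, with r after removal of genotype means beside it. Cish was followed by Tbc1d24 (r = 0.92, within genotypes 0.51), Lgr4, an R-spondin receptor (0.92 and 0.67), and Slc45a3 (0.92 and 0.45), all highest in HER2 mutants, such as Slc45a3 at 157 ± 52.0 CPM (n = 4) against 15.3 ± 2.54 (n = 3) in WT and 36.7 ± 18.6 (n = 5) in double mutants. Socs2 was followed by Fkbp11, a chaperone of the secretory pathway (0.92 and 0.79), Wbp1 (0.92 and 0.77) and C1qtnf1 (0.90 and 0.82). Elf5 was followed by Tcn2, a cobalamin carrier (0.90 and 0.89), Folr1, a folate receptor (0.90 and 0.88), and Ak3 (0.89 and 0.92). Prlr was followed by Elovl6, an elongase of fatty acids (0.94 and 0.93), Nfyc (0.94 and 0.96) and Drg2 (0.94 and 0.95). Stat5a was followed by Adra2c (0.91 and 0.84), Polrmt (0.88 and 0.81) and Washc2 (0.88 and 0.76), and Stat5b by Fbxo46 (0.95 and 0.95), Ddr1 (0.93 and 0.91) and Emc10 (0.93 and 0.90). Socs1 was followed by Isyna1 (0.89 and 0.74), Hsdl2 (0.88 and 0.68) and Shc1 (0.87 and 0.55), and Socs3 by Numbl (0.92 and 0.96), Nptxr (0.91 and 0.97) and Acpp (0.88 and 0.89). The likeness was lower inside genotypes than across them for all 3 genes of Cish, Socs1, Socs2, Stat5a and Stat5b. Inside genotypes it was 0.45 to 0.67 for Cish and 0.89 or higher for Prlr, Stat5b and Socs3. All these values share libraries and scaling and are given as a description.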

How the data were processed

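RNA from 16 organoid samples was sequenced after SMARTer library preparation, per the labels' protocols. The deposited table holds raw read counts per gene that the authors made. The submitters' processing notes name the mm10 build, bcl2fastq 2.20, STAR 2.0.4b, Subread with featureCounts 1.4.5 and DESeq2 1.33.5, without their settings; whether counting used strand is not given in the sources used here, so overlapping and antisense genes cannot be told apart. A deposited normalised table was not used. Of 55774 rows, 287 repeated an identifier with identical values and were dropped. Counts were tested in R 4.3.3 with edgeR 4.0.16 (TMM scaling, filterByExpr, quasi-likelihood test, all 16 samples, genotype as the only term, Benjamini-Hochberg adjustment over 24252 genes, threshold 0.05); standard errors derive from the fold change and its F statistic. CPM use TMM-scaled library sizes, and RPKM the union of a gene's exons. The fit was checked on simulated data. Alternatives were 2 other scalings, no filter, DESeq2 1.42.0, a replicate block, fits of 2 genotypes only, each sample left out, and, chosen after seeing the data, double mutants 2 and 3 left out. The 8 genes, the gene lists and the tests were chosen with earlier results of these data known. Beside the 8 genes, Erbb2 and Pik3ca, genes are named by rule: per list and comparison up to 3 called genes with the largest rise and 3 with the largest fall, and per member the 3 genes of highest r (mean log2 CPM of at least 1, no predicted-gene names). Csn3, Lalba, Jak1, Jak2 and Stat6 fall outside it and were chosen after their values were seen. The calls of Il11ra1, Osmr, Il6st and Il6ra in double mutants against WT also fall outside it.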

Additional observations from a re-analysis of the deposited data

Results flagged for a closer look

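In 60 sets of 4 or 5 samples of 1 genotype (levels of the 8 genes and marker sums among them), 3 had an end sample whose gap to its nearest neighbour, as a share of the whole range, passed Dixon's critical value, a rate chance gives in about 1 of 20 sets. Cish in HER2 mutant 1 was 20.29 CPM, with the nearest sample at 35.66 and the far end at 37.22 CPM, a share of 0.908. The summed luminal epithelial markers of double mutant 2 were 3893.9 CPM, with the nearest at 2486.7 and the far end at 2024.3 CPM, a share of 0.753. The summed adipocyte markers of HER2 mutant 4 were 0.1228 CPM, with the nearest at 0.4451 and the far end at 0.5092 CPM, a share of 0.834. Without HER2 mutant 1, Cish remained called in all 3 pair comparisons that involve HER2 mutants.

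The difference of double from HER2 mutants departed from that of PIK3CA mutants from WT for Cish (-2.08 on the log2 scale), Socs2 (-3.02) and Socs1 (1.54), by edgeR's test of the interaction. The tissue source differs inside this test, since only WT is of normal origin. Of 16 fits that left out 1 sample, the call was lost in 9 for Socs2, in 5 for Socs1 and in 1, without WT 3, for Cish. The share of all genes called in that test was 1.06%.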

How the results depend on the processing

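Over all alternatives the log2 fold changes of the 8 genes kept direction wherever they were called, and none of the called values reversed. The Cish calls of HER2 mutants against WT and against PIK3CA mutants and of double against HER2 mutants, the Socs2 call of HER2 against PIK3CA mutants, and the Socs1 call of PIK3CA mutants against WT, held under every alternative run. Of the 8 genes, double mutants against WT had 2 called with upper-quartile scaling, 2 with DESeq2, 0 without the filter and 0 without double mutants 2 and 3, where all samples gave 1; leaving out 1 sample gave 0 to 2. In fits of the 2 genotypes only, PIK3CA mutants against WT had 3 called, HER2 mutants against WT 1 and double against HER2 mutants 1. In the interaction, leaving out 1 sample gave 0 to 3 called genes of the 8.

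Counts over all genes moved more. DESeq2 called 1778 genes in PIK3CA mutants against WT (edgeR 1096), 1652 in double against HER2 mutants (606), 613 in double against PIK3CA mutants (163), 2110 in HER2 against PIK3CA mutants (1069) and 945 in the interaction (257). Fits of 2 genotypes called 4136 in PIK3CA mutants against WT, 541 in HER2 mutants against WT (all samples 2518), 37 in double against HER2, 364 in double against PIK3CA and 534 in HER2 against PIK3CA mutants. Without double mutants 2 and 3 the counts were 1125 for double against HER2 mutants and 998 for the interaction. Leaving out 1 sample gave 396 (without WT 3) to 1043 genes in PIK3CA mutants against WT, 733 (without WT 3) to 2693 in HER2 mutants against WT, 1173 (without WT 3) to 2961 in double mutants against WT (all samples 2850), 256 to 975 in double against HER2, 17 to 143 in double against PIK3CA, 427 to 1166 in HER2 against PIK3CA mutants and 54 to 382 in the interaction. Upper-quartile scaling moved the split of higher and lower genes from 249 and 357 to 191 and 441 in double against HER2 mutants. The cause of these shifts was not tested, apart from the fewer samples that some fits hold.

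Replicate numbers are shared between genotypes, and the mean correlation of same-numbered samples' deviations from group means ran from -0.0521 (WT and HER2 mutants) to 0.157 (HER2 and double mutants, 0.0711 to 0.273, against a mean of -0.0408 for different numbers). In no pair of groups was every same-numbered value above 0.1, so the main fit held no term for the number. The mean for different numbers hides values of both signs. HER2 mutants 2 and 3 went with double mutants 2 and 3 (r from 0.0711 to 0.273) and against double mutants 1, 4 and 5 (-0.279 to -0.0401). HER2 mutants 1 and 4 did the reverse (-0.241 to -0.0358, and 0.0487 to 0.261). Samples of these 2 genotypes thus shared deviations in a way that the numbers do not give, and its source was not tested. With the replicate block, 2 of the 8 genes were called in double mutants against WT, 1 in double against HER2 mutants (Socs2 at -2.23, adjusted p = 0.0686) and 0 in the interaction (adjusted p for Cish 0.0546, Socs1 0.107 and Socs2 0.129). Over all genes the replicate block gave 1625 calls in HER2 mutants against WT, 118 in double against HER2, 19 in double against PIK3CA, 552 in HER2 against PIK3CA mutants and 35 in the interaction.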

Other observations

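Hormone-sensing luminal markers, which mark the cells that carry the estrogen and progesterone receptors, summed to 149 to 218 CPM in WT, 127 to 199 in PIK3CA mutants, 47.6 to 190 in HER2 mutants and 110 to 246 in double mutants. The alveolar progenitor markers, which include the milk genes Csn3 and Lalba, summed to 3973 to 5822 CPM in WT and to 6130 to 21436 CPM in the mutants. Csn3 carries this sum (4184 ± 991 CPM in WT, n = 3, and 12191 ± 6016 in HER2 mutants, n = 4), and the list's median log2 fold change had the opposite sign, -0.22 in HER2 and -0.35 in double mutants against WT, with 2 of 6 genes higher and 0 lower in each.

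Within genotypes Cish ran against Prlr (r = -0.75 over the 16 samples after removal of genotype means), Stat5b (-0.64) and Elf5 (-0.60). These values share libraries and scaling, and the double mutants, whose replicates 2 and 3 stood apart in Prlr and Cish, enter them. HER2 mutants 2 and 3, above HER2 mutants 1 and 4 in Cish and below them in Prlr, Stat5b and Elf5, also enter them.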
